A study of Mus musculus with 6 samples.

Results

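The genes described here encode the thioredoxin system of the cell, namely thioredoxin (Txn1), its reductases (Txnrd1 and Txnrd2), its inhibitor Txnip, the peroxiredoxins that draw electrons from it and the repair enzyme sulfiredoxin (Srxn1). They were measured in whole liver of FRG mice, in which Fah, Rag2 and Il2rg are knocked out on a C57Bl/6J background. Fah is the last enzyme of tyrosine breakdown, and the loss of Rag2 and Il2rg removes mature T, B and NK cells. All mice were male, 12 weeks old and fed a chow low in tyrosine and phenylalanine. The 3 FRG-7dNTBC mice had been taken off NTBC (nitisinone) at 11 weeks and were without it for 7 days. The 3 FRG+NTBC mice stayed on 16 mg/L NTBC in drinking water with dextrose for taste. NTBC blocks the upstream enzyme Hpd. Whether the water of the FRG-7dNTBC mice held dextrose during the 7 days is not stated by the study. Each mouse gave 1 Affymetrix mouse expression array. A member was any probe set, a group of probes summarised as 1 value, whose only gene symbol in the array annotation was one of 10 listed genes. This gave 18 of 45037 probe sets, for 7 of the 10 genes: Srxn1 and Txnrd2 had 4 each, Txnrd1 had 3, Txn1, Txnip and Prdx2 had 2 each, and Prdx3 had 1. All 5 probe sets that carry the symbol Prdx1 carry the symbol Gm21399 as well, so Prdx1 was not analysed here, and neither were Prdx5 and Prdx6, which no probe set named in the annotation used.

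Thioredoxin is a small protein that reduces disulfide bonds of other proteins with a pair of cysteines of its own. A thioredoxin reductase, a selenoprotein, restores it with electrons from NADPH, and Txnip binds reduced thioredoxin and blocks it. Peroxiredoxins destroy hydrogen peroxide with a reactive cysteine and are reset by thioredoxin, but at high peroxide levels that cysteine is oxidized too far for thioredoxin to reduce. Sulfiredoxin reverses this over-oxidation with ATP. Several of these genes are known targets of NRF2, a transcription factor that switches on antioxidant genes.

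In FRG-7dNTBC livers the cytosolic arm of the system and sulfiredoxin were higher, the mitochondrial reductase and the inhibitor were lower at their brightest probe sets, and of the peroxiredoxins Prdx3 was higher while Prdx2 did not pass the test. Of 18 member probe sets, 10 were higher, 2 were lower and 6 did not pass limma at an adjusted p under 0.05 (Benjamini-Hochberg over all probe sets). Over all probe sets the same rule called 14.0% higher and 13.9% lower. The log2 fold change (log2FC) was taken as FRG-7dNTBC minus FRG+NTBC, and its median was 1.07 for the member probe sets and -0.08 for all probe sets. Folds given below are 2 to the power of the size of the log2FC. They can differ slightly from the ratio of the mean intensities printed beside them. At the brightest probe set of each gene, which has the highest average log2 value on the 6 arrays, Srxn1, Txnrd1, Prdx3 and Txn1 were higher, Txnip and Txnrd2 were lower and Prdx2 did not pass. That is 4 of 7 genes higher and 2 lower, against 17.4% and 12.7% of all 18193 genes so represented. At each of the 10 higher and 2 lower probe sets the 3 mice of one group lay clear of the 3 of the other. Over all probe sets 18.6% were apart with FRG-7dNTBC higher and 25.5% with FRG-7dNTBC lower. An exact permutation test on 3 and 3 mice has 0.1 as its smallest two-sided p, and the calls come from limma, which shares the estimate of spread across probe sets. Without that sharing 8 member probe sets were higher and 2 lower.

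**Figure D1:**
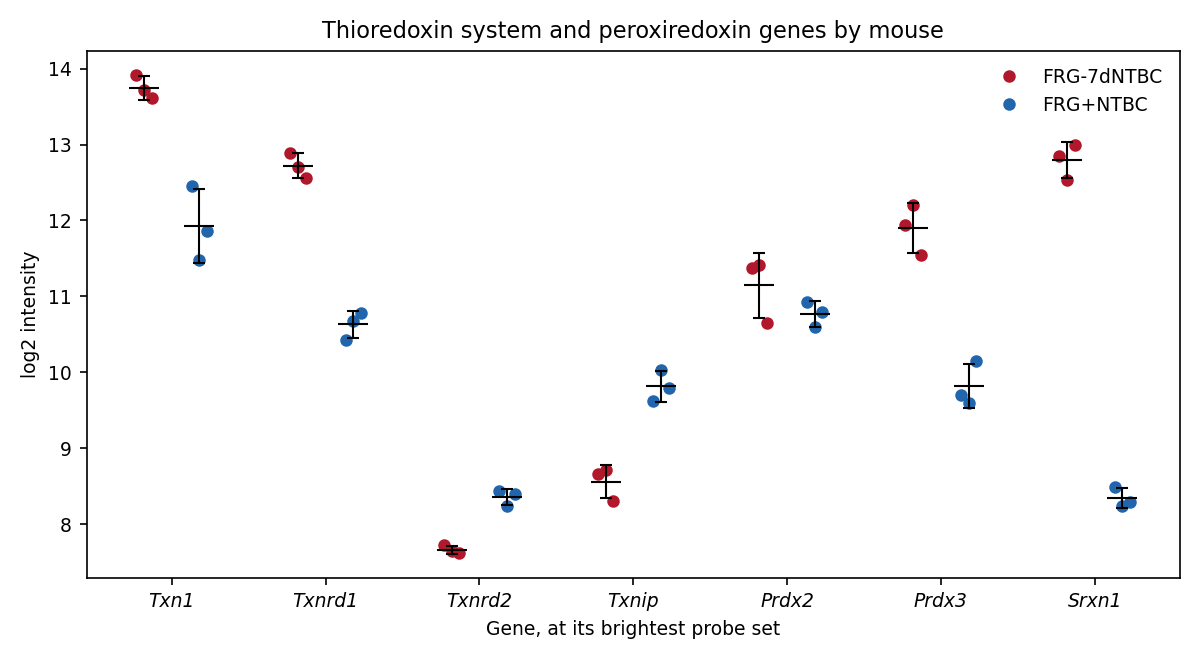
Log2 intensity (vertical axis) of the 7 measured genes at their brightest probe sets, 1 point per mouse, with mean and SD (n = 3 mice per group), FRG-7dNTBC in red and FRG+NTBC in blue. The groups are apart for every gene except Prdx2, where 1 FRG-7dNTBC mouse lies among the FRG+NTBC mice, and levels of different genes cannot be compared because each probe set has its own brightness.

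Srxn1 had the largest change of the members. Its brightest probe set (1426875_s_at) read 7383, 5914 and 8192 in FRG-7dNTBC mice, against 360, 302 and 313 in FRG+NTBC mice (intensity on a linear scale, as deposited). The lowest mouse without the drug stood far above the highest mouse on it. Srxn1 intensity averaged 7163 ± 1155 in FRG-7dNTBC livers and 325 ± 30.4 in FRG+NTBC livers (SD, n = 3 mice per group), a 21.9-fold rise (log2FC 4.45, SE 0.16, limma adjusted p = 7.69e-06). This is rank 29 from the top among all 45037 probe sets. The next probe sets of Srxn1 ranked 59 and 41. Probe set 1451680_at read 1746, 2006 and 1808 in FRG-7dNTBC mice and 163, 115 and 132 in FRG+NTBC mice, a 13.7-fold rise. Probe set 1425351_at read 1105, 1351 and 776 in FRG-7dNTBC mice and 58.5, 55.7 and 70.0 in FRG+NTBC mice, a 17.2-fold rise. The fourth, 1419942_at, rose 3.84-fold to 313 ± 51.2 in FRG-7dNTBC livers, against 82.6 ± 21.1 in FRG+NTBC livers (limma adjusted p = 0.000499), so the size of the rise differed between probe sets of the same gene while its direction did not. On NTBC the readings of the last pair, 55.7 to 105, lay within the 7.67 to 108 that 4 genes of mature T cells (Cd3e, Cd3g, Cd4 and Cd8a) read over the 6 arrays of these T-cell-deficient mice. Folds that start from such readings are not exact.

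The promoter of Srxn1 is shown because Srxn1 moved most and its window holds a repeated motif. The stretch covers chr2:152105409-152105498 (GRCm38.p6, plus strand), upstream of the RefSeq start site, and the capitals mark 2 copies of TGAGTCA, a sequence known to be bound by AP-1 and to form the middle of many antioxidant response elements.
Srxn1: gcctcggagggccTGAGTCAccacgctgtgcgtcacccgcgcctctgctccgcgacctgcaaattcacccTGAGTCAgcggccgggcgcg
The copies begin 102 and 45 bases before the start site. TGAGTCA on either strand was found in 5.2% of 32851 RefSeq windows of the same length, which run from 250 bases before to 50 bases after a start site. The core TGACNNNGC of the antioxidant response element, which can overlap a TGAGTCA match read on the other strand, was found on either strand in 12.4% of the windows and matched Srxn1 at 28 bases after the start site. A match describes the letters of a window and does not show binding.

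Txnrd1, the reductase of cytosolic thioredoxin, was higher at all 3 of its probe sets. The brightest (1421529_a_at) read 7591, 6700 and 6039 in FRG-7dNTBC mice, against 1380, 1641 and 1758 in FRG+NTBC mice. The groups were well apart, and Txnrd1 rose 4.26-fold (log2FC 2.09, SE 0.15, limma adjusted p = 9.07e-05). At 1424486_a_at Txnrd1 read 471, 474 and 320 in FRG-7dNTBC mice and 141, 95.01 and 86.8 in FRG+NTBC mice, a 3.94-fold rise (limma adjusted p = 0.00064). At 1424487_x_at it read 232, 251 and 147 in FRG-7dNTBC mice and 97.0, 90.5 and 64.5 in FRG+NTBC mice, a 2.47-fold rise (limma adjusted p = 0.00508) from readings within the range of the T cell genes. FRG-7dNTBC replicate 3 was the lowest of its group at all 3. Without moderation of the variances the last call was lost (adjusted p = 0.0669). RefSeq lists 3 start site windows for Txnrd1, and 1 of them holds the core TGACNNNGC, on the opposite strand. It is shown because Txnrd1 was higher at all 3 probe sets and this window holds a match. Whether the match bears on the rise was not tested. The stretch is chr10:82859086-82859145 (GRCm38.p6, plus strand), upstream of the start site, with the match in capitals.
Txnrd1: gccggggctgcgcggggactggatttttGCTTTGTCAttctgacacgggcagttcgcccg
The match begins 92 bases before the start site. The windows of Txn1, Txnrd2, Prdx2 and Prdx3 held neither this core nor TGAGTCA, which says only that these letters are not in those windows. The window of Prdx1, whose level was not analysed here, held 2 TGAGTCA matches, the nearer of them overlapping its core match.

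Txn1, cytosolic thioredoxin itself, was the brightest member on the arrays and rose with its reductase. At 1416119_at it read 15500, 13494 and 12503 in FRG-7dNTBC mice, against 5595, 2856 and 3717 in FRG+NTBC mice. The FRG+NTBC mice differed among themselves by more than the FRG-7dNTBC mice on the log2 scale, and replicate 1 was the highest of them. Txn1 averaged 13832 ± 1527 in FRG-7dNTBC livers and 4056 ± 1401 in FRG+NTBC livers (SD, n = 3 mice per group), a 3.53-fold rise (log2FC 1.82, SE 0.24, limma adjusted p = 0.00105). The dimmer probe set, 1456734_at, read 236, 239 and 407 in FRG-7dNTBC mice, against 149, 182 and 150 in FRG+NTBC mice (log2FC 0.83, SE 0.22, limma adjusted p = 0.0269). FRG-7dNTBC replicate 3 was the highest mouse here and the lowest of its group at the brighter probe set. The call at the dimmer probe set was lost without FRG+NTBC replicate 1 (adjusted p = 0.0852), replicate 2 (0.0531) or replicate 3 (0.0831), after quantile normalization (0.0763) and without moderation (0.129).

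Txnrd2, the reductase of mitochondrial thioredoxin, was lower at its brightest probe set. This probe set (1449097_at) read 211, 199 and 197 in FRG-7dNTBC mice, against 345, 302 and 338 in FRG+NTBC mice. Both groups were tight and apart, with a log2FC of -0.70 (SE 0.12, limma adjusted p = 0.00365). The other 3 probe sets of Txnrd2 did not pass. At 1429971_at the FRG-7dNTBC mice read 167, 167 and 169 and the FRG+NTBC mice 296, 164 and 175, so the difference came from FRG+NTBC replicate 1. The log2FC at this probe set was -0.29 (95% interval -0.79 to 0.22), and -0.02 without that mouse. At 1429972_s_at and 1451936_a_at it was 0.22 (-0.33 to 0.77) and 0.23 (-0.33 to 0.78), on readings of 72.0 to 140 and 30.1 to 60.1 over the 6 arrays, largely within the range of the T cell genes. Without FRG-7dNTBC replicate 3 the last of them was called higher (log2FC 0.52, limma adjusted p = 0.0281), the opposite direction to the brightest probe set. The mean of all 4 probe sets gave a log2FC of -0.13 (limma adjusted p = 0.537). The lower level of Txnrd2 therefore rests on 1 probe set. In whole liver, fewer cells of a type and less RNA per cell cannot be told apart.

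The change of Txnrd1 exceeded that of Txnrd2 by 2.79 on the log2 scale at their brightest probe sets, from the difference of both log2 intensities in each mouse. This difference was 5.06 ± 0.12 in FRG-7dNTBC livers and 2.27 ± 0.24 in FRG+NTBC livers (SD, n = 3 mice per group), where the level itself has no meaning but the change does. With the mean of all probe sets of each gene the excess was 1.93. For Txn1 minus Txnip the difference was 5.19 ± 0.16 in FRG-7dNTBC livers and 2.12 ± 0.69 in FRG+NTBC livers, an excess of 3.07, or 1.91 with the mean of all probe sets. Both gave p = 0.1 in a two-sided exact permutation test, the smallest that 3 mice against 3 allow, and 0.1 when adjusted over the 2 pairs. In each pair 1 gene was higher and the other lower at these probe sets, both without overlap of the groups. This p therefore followed from those readings and adds no evidence of its own.

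**Figure D2:**
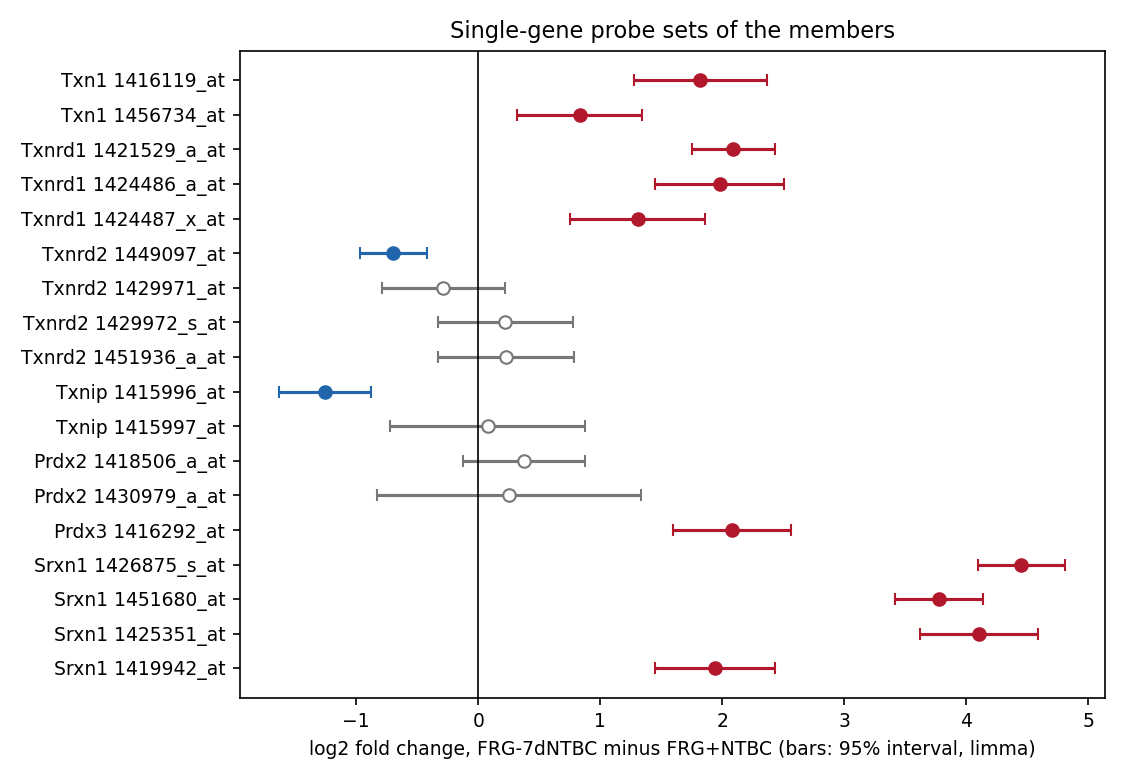
Log2 fold change on the horizontal axis (positive values are higher in FRG-7dNTBC) of the 18 member probe sets with 95% intervals from limma, named by gene and probe set and in order of brightness within a gene. Red points were higher, blue points lower and open points did not pass: all probe sets of Srxn1, Txnrd1 and Txn1 are red, whereas 1 of 4 of Txnrd2 and 1 of 2 of Txnip are blue.

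Txnip, the inhibitor of thioredoxin and an alpha-arrestin that also restrains glucose uptake, was lower where thioredoxin was higher. At 1415996_at it read 405, 419 and 317 in FRG-7dNTBC mice, against 787, 1046 and 885 in FRG+NTBC mice. The highest FRG-7dNTBC mouse stood well below the lowest FRG+NTBC mouse, a 2.38-fold fall (log2FC -1.25, SE 0.16, limma adjusted p = 0.00109). The dimmer probe set, 1415997_at, read 85.6, 146 and 47.8 in FRG-7dNTBC mice and 75.1, 82.1 and 82.7 in FRG+NTBC mice, with overlapping groups (log2FC 0.08, 95% interval -0.72 to 0.88). FRG-7dNTBC replicate 2 was the highest mouse at both probe sets within its group, and FRG-7dNTBC replicate 3 the lowest. The mean of both probe sets did not pass (log2FC -0.59, limma adjusted p = 0.0959). The promoter of Txnip is shown because it holds a match to the carbohydrate response element. This is the paired E-box through which MondoA and ChREBP are known to drive Txnip when glucose is plentiful. The stretch is chr3:96557847-96557906 (GRCm38.p6, plus strand), upstream of the start site, with the match in capitals.
Txnip: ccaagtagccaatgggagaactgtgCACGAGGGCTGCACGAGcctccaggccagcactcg
The motif, CACGNG and CNCGNG with 5 bases between them, was searched on both strands and found in 0.365% of the 32851 windows and in no other member's window. In Txnip it begins 85 bases before the start site. Whether the match bears on the fall of Txnip was not tested. Of 7 genes of alpha-arrestins and of MondoA and ChREBP, 2 were lower and 1 was higher (median log2FC -0.12, against -0.05 over all genes). Over all genes 12.7% were lower and 17.4% higher. Arrdc3, an alpha-arrestin that guides membrane receptors to degradation, fell by 1.75 on the log2 scale, and Mlxipl, the gene of ChREBP, fell by 0.87 (limma adjusted p = 0.00368). Arrdc4, a close relative of Txnip, rose by 0.69, a call that was lost when FRG-7dNTBC replicate 1 or FRG+NTBC replicate 2 or 3 was left out, after quantile normalization, after scaling to one 75th percentile and without moderation.

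**Figure D3:**
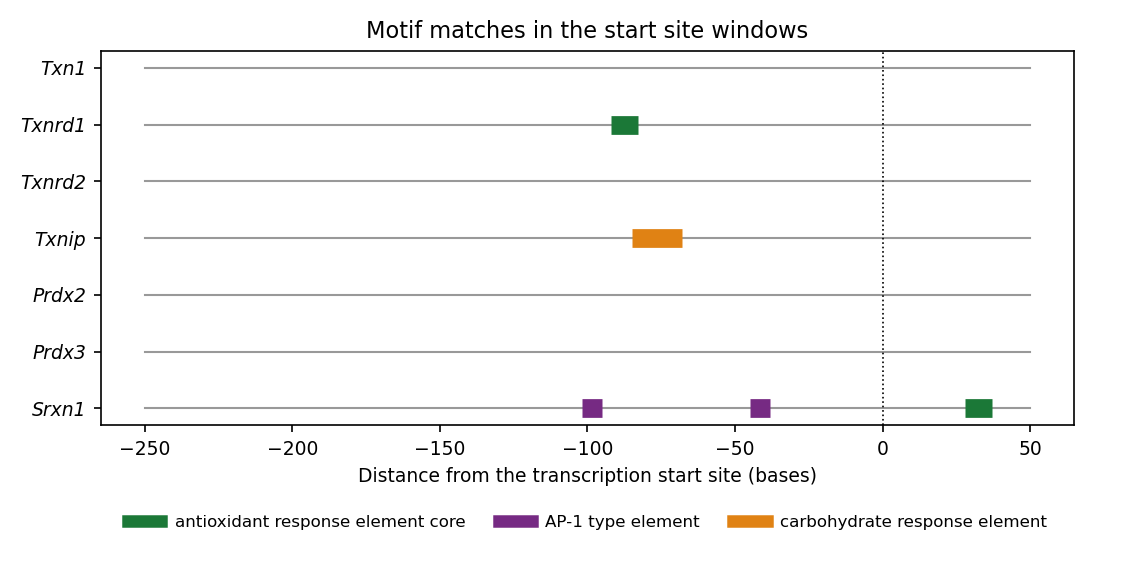
Matches to 3 motifs in the RefSeq windows from 250 bases before to 50 bases after the start site (horizontal axis, bases, start site at 0) of the 7 measured genes. Bars mark TGACNNNGC in green, TGAGTCA in purple and the carbohydrate response element in orange, and the 3 windows of Txnrd1 are drawn as 1 line. Srxn1 holds 2 purple bars and 1 green bar, Txnrd1 holds 1 green bar and Txnip holds the orange bar.

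Prdx3, the peroxiredoxin of mitochondria, rose 4.23-fold. It read 3929, 4705 and 2998 in FRG-7dNTBC mice, against 832, 776 and 1136 in FRG+NTBC mice (1416292_at, its only probe set). The lowest FRG-7dNTBC mouse was above the highest FRG+NTBC mouse, with a log2FC of 2.08 (SE 0.21, limma adjusted p = 0.000363). Prdx2, an abundant cytosolic peroxiredoxin that is also a major protein of red blood cells, did not pass. It read 2647, 2721 and 1607 in FRG-7dNTBC mice, against 1938, 1541 and 1771 in FRG+NTBC mice (1418506_a_at). The FRG-7dNTBC mice were split, with replicate 3 within the FRG+NTBC range and the other 2 above it. The log2FC of Prdx2 was 0.38 (95% interval -0.12 to 0.88, limma adjusted p = 0.238), so a rise of the size of Prdx3 lies outside the interval and a smaller one does not. Without FRG-7dNTBC replicate 3 Prdx2 was called higher (log2FC 0.62, limma adjusted p = 0.0182), as with array weights (0.54, adjusted p = 0.045). Its dimmer probe set, 1430979_a_at, read 352, 205 and 326 in FRG-7dNTBC mice and 300.2, 431 and 108 in FRG+NTBC mice, too scattered to place (95% interval -0.83 to 1.34), and its direction turned without FRG+NTBC replicate 3. Of 9 red cell markers 5 were measured. Hba-a1, Slc4a1 and Epb42 read 7.67 to 21.3 in all mice, Alas2 was lower and Tfrc was higher. The summed level of these 5 was 2786 to 2953 in FRG-7dNTBC livers and 952 to 1452 in FRG+NTBC livers, most of it Tfrc, the transferrin receptor. The sum therefore follows Tfrc, while Alas2 went the other way, and it does not measure red cell content. The part of red cells in the Prdx2 readings was not tested.

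**Figure D4:**
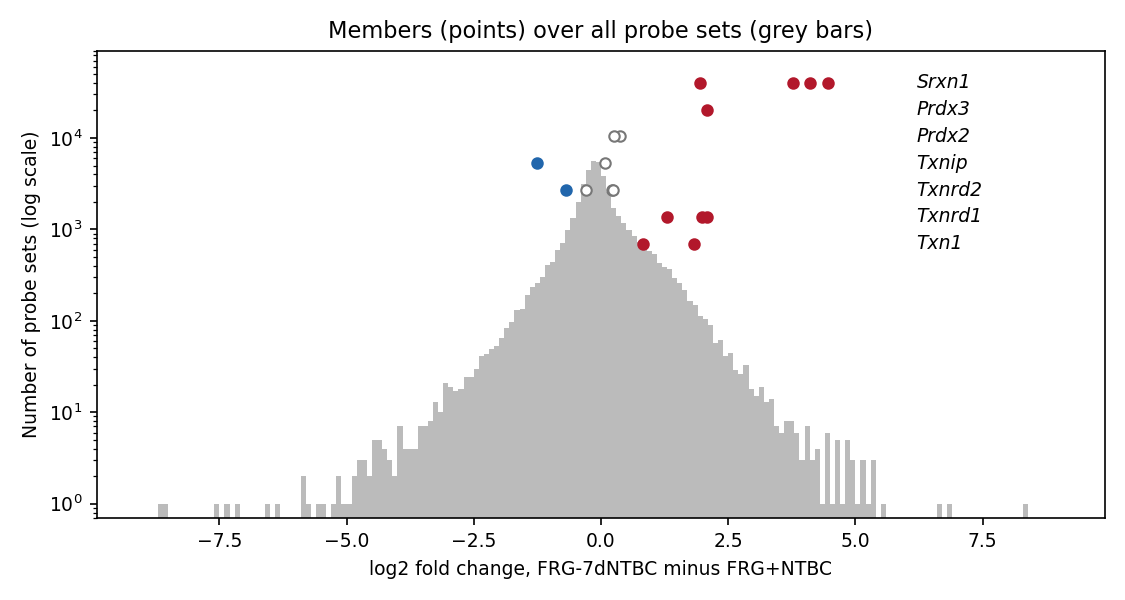
Log2 fold change (horizontal axis) of all 45037 probe sets as grey bars (number of probe sets in bins, log scale), with the member probe sets as points, 1 height per gene chosen for legibility. Red points were higher, blue lower and open points did not pass: 3 of 4 Srxn1 points lie in the far right tail, at ranks 29, 41 and 59, and the open points of Txnrd2, Prdx2 and Txnip lie nearer to 0.

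Of 13 other genes of the thioredoxin system 2 were higher, 2 were lower and 9 did not pass (median log2FC 0.25), shares near the 17.4% higher and 12.7% lower of all genes. Prdx4, the peroxiredoxin of the endoplasmic reticulum, rose by 0.90 at its brightest probe set (SE 0.18, limma adjusted p = 0.00772), and no other of its 4 probe sets passed. Txn2, the mitochondrial thioredoxin, read 1418, 1269 and 755 in FRG-7dNTBC mice, against 744, 760.1 and 838 in FRG+NTBC mice, and did not pass (log2FC 0.51, limma adjusted p = 0.141), while 1 of its 3 probe sets, a dimmer one, was higher. As with Prdx2, FRG-7dNTBC replicate 3 lay with the FRG+NTBC mice and the other 2 lay above them. The lower genes were Sesn1 (log2FC -1.13), a sestrin, and Txnrd3 (-0.98), the third reductase, best known from testis. Txndc9, a thioredoxin-like cochaperone, rose by 0.48. The 2 higher calls fell to 1 when FRG-7dNTBC replicate 1 or FRG+NTBC replicate 1 or 2 was left out. Glutaredoxins do similar work with glutathione in place of thioredoxin. Of 4 glutaredoxins, Glrx rose by 1.42 and Glrx2 by 0.90 on the log2 scale, each at all of its probe sets. Without FRG+NTBC replicate 1 or 2, 1 of these calls was lost. Glrx3 and Glrx5 did not pass. The only probe set of Glrx3 read 15.2 to 22.3 in all mice, within the range of the T cell genes, so it cannot show whether Glrx3 changed.

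Of 9 client genes, whose products take electrons from thioredoxin or are held by it, 3 were higher and 1 was lower, beside 17.4% higher and 12.7% lower over all genes. Msrb3 (log2FC 1.09) repairs oxidized methionine, and Rrm2b (1.07) and Rrm1 (0.50) are ribonucleotide reductase subunits. Msrb3 was higher at 1 of its 2 probe sets, Rrm2b at 3 of 4 and Rrm1 at 1 of 3. In FRG+NTBC mice these 3 genes read 51.6 to 118, within or near the range of the T cell genes, so the sizes of their rises are not exact. Msrb1, a selenoprotein that also repairs methionine, fell by 1.03 (SE 0.19, limma adjusted p = 0.00491), and Map3k5, the kinase ASK1 that thioredoxin holds inactive, stood at 0.26 (adjusted p = 0.425). Because thioredoxin reductases contain selenocysteine, 22 selenoproteins and factors of selenocysteine synthesis were set beside them, of which 6 were higher and 6 lower (median log2FC -0.09). Dio1, the deiodinase that activates thyroid hormone, was lower (limma adjusted p = 0.00126), at 40.8 to 83.9 in FRG-7dNTBC mice, within the range of the T cell genes, and 355 to 1574 in FRG+NTBC mice, so the size of its fall is not exact. The selenocysteine lyase Scly fell by 1.34 on the log2 scale and Selenoo by 1.29. Selenoi rose by 1.59 and Selenok by 1.41. Of the factors of selenocysteine synthesis, Sephs2 and Sepsecs fell by 0.76 and 0.90, with 2 of 3 and 1 of 2 probe sets lower. The tRNA-associated Trnau1ap rose by 0.77, with 1 of 2 probe sets higher. Sephs1 fell by 0.85 at its brightest probe set but was higher at 2 of its 4. Pstk, Secisbp2 and Eefsec did not pass. With FRG-7dNTBC replicate 1 or FRG+NTBC replicate 2 left out, 3 of this list were higher.

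NRF2 and its classic targets stood beside the members that rose. Nfe2l2, the gene of NRF2, averaged 1591 ± 344 in FRG-7dNTBC livers and 506 ± 134 in FRG+NTBC livers (SD, n = 3 mice each, log2FC 1.66, limma adjusted p = 0.00133), and its inhibitor Keap1 did not pass (-0.13, adjusted p = 0.54). Nqo1, a quinone reductase, rose by 3.63, and Gclc and Gclm, the subunits of the first enzyme of glutathione synthesis, each rose by 1.40. Across the 6 arrays the pattern of Srxn1 was most like those of Zmynd12, Spata5l1 and Gpx3, each with a Pearson r of 0.999 between log2 values. These are single-gene probe sets outside the members, and with 2 groups so far apart such an r mostly restates that a gene differs between groups with little spread. Their own log2FCs were 5.01, 1.84 and 0.99, and Gpx3 encodes the glutathione peroxidase of plasma.

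**Figure D5:**
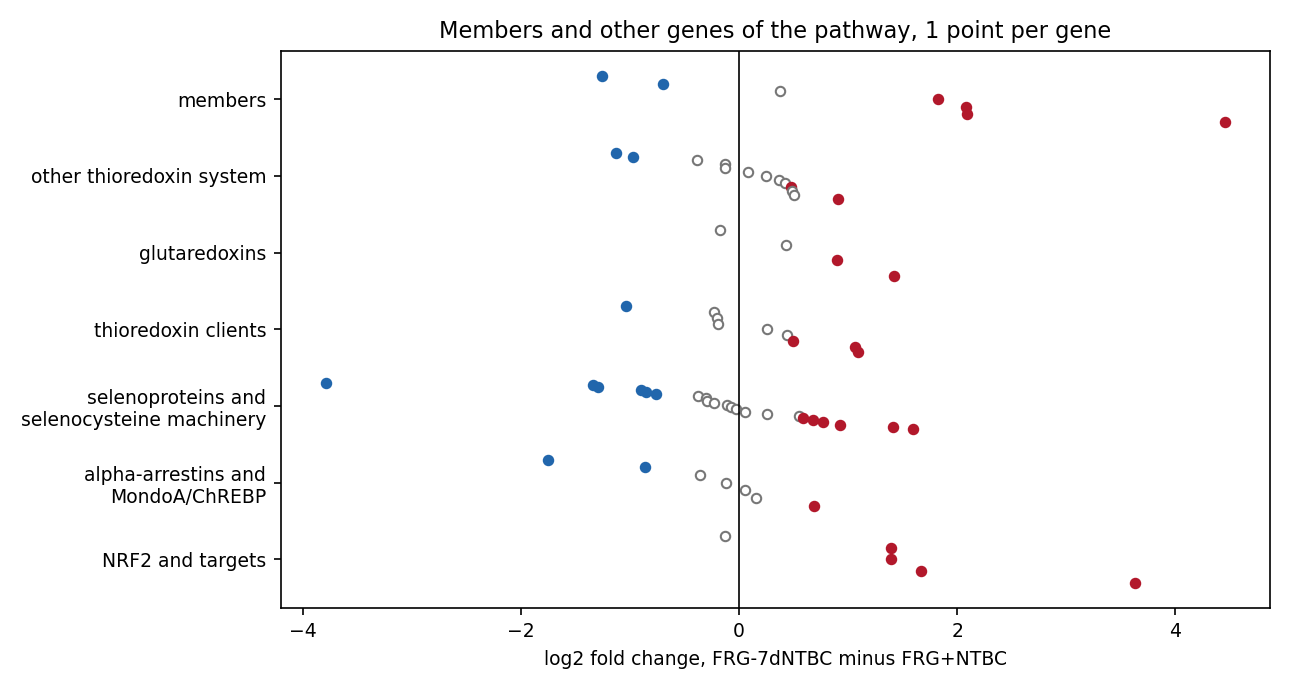
Log2 fold change on the horizontal axis (positive values are higher in FRG-7dNTBC) at the brightest probe set of each gene, for the members and 6 further lists, 1 point per gene, with red higher, blue lower and open not passed. The members and the NRF2 group have 4 red points each, and the 22 selenoproteins and selenocysteine factors have 6 red and 6 blue points.

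Median array intensities were slightly lower in FRG-7dNTBC livers, at 33.1 to 34.3, than in FRG+NTBC livers, at 35.3 to 36.5, and the 2 ranges did not overlap. The deleted gene Rag2 read 16.45 to 22.47 in all mice, and Il2rg was not analysed here. The probe set of the deleted gene Fah read 95.5 ± 20.2 in FRG-7dNTBC livers and 198 ± 16.5 in FRG+NTBC livers, and Hpd, the target of the drug, read 5766 ± 1431 in FRG-7dNTBC livers and 12081 ± 386 in FRG+NTBC livers (SD, n = 3 mice per group). Whether these probes lie in the deleted stretches is not given in the sources used here. The hepatocyte genes Alb and Ttr were among the brightest on the arrays, with Alb at 27306 ± 664 in FRG-7dNTBC livers and 25775 ± 728 in FRG+NTBC livers, as the liver label implies. Of 7 hepatocyte markers, Tat and Cyp2e1 were lower, with a summed intensity of 97501 to 111388 in FRG-7dNTBC livers and 114190 to 118090 in FRG+NTBC livers, and 1 of these calls was lost when FRG-7dNTBC replicate 1 or any FRG+NTBC mouse was left out. The counts of this and the following marker lists stand beside 17.4% higher and 12.7% lower over all genes. Of 7 macrophage markers 4 were higher (Cd68, Cd5l, Vsig4 and Marco), and Adgre1, Csf1r and Clec4f did not pass. The count was 2 when FRG-7dNTBC replicate 1 or FRG+NTBC replicate 1 or 2 was left out, and the summed intensity of all 7 was 1894 to 4590 in FRG-7dNTBC livers and 1582 to 2184 in FRG+NTBC livers. Of endothelial markers 2 of 7 were higher (Lyve1 and Clec4g, or 1 with FRG-7dNTBC replicate 1 or FRG+NTBC replicate 1 or 2 left out), with a summed intensity of 1866 to 2290 in FRG-7dNTBC livers and 1163 to 1755 in FRG+NTBC livers. Of stellate cell markers 1 of 7 was higher (Lrat, or none with FRG+NTBC replicate 3 left out and 2 with FRG-7dNTBC replicate 2 left out), with a sum of 919 to 2134 in FRG-7dNTBC livers and 810 to 1179 in FRG+NTBC livers. At their brightest probe sets no neutrophil, lymphocyte or cholangiocyte marker of the 5, 6 and 5 measured passed. A dimmer probe set of Epcam was higher and one of Cd8a was lower. At the brightest probe sets 1 cholangiocyte marker was higher with FRG-7dNTBC replicate 2 left out, and 1 neutrophil and 1 cholangiocyte marker were higher with array weights. Scaling to one 75th percentile called 1 cholangiocyte marker lower. Each summed intensity is led by the brightest probe sets of its list, such as Alb for hepatocytes and Csf1r for macrophages. Such a sum does not measure cell content. The arrays give no value of 0, and the part of these cell types in the members' results was not tested.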

How the data were processed

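Whole-liver RNA of 3 FRG-7dNTBC and 3 FRG+NTBC mice was hybridised to 6 arrays. Per the study's methods and the labels, the authors deposited intensity values after Robust Multiarray Analysis (background correction, quantile normalization, median polish), and the Transcriptome Analysis Console is named in the submitters' processing notes. The deposited values are linear, and all of them equal a log2 value rounded to 2 decimals (tolerance 0.005 intensity units), so ties occur and differences under that step are lost. Groups were compared on the log2 scale by limma 3.58.1 under R 4.3.3 (lmFit and eBayes without covariates), with Benjamini-Hochberg adjustment over all 45037 probe sets and a threshold of 0.05. In the annotation 34945 probe sets have 1 symbol, 932 several and 9160 none. Genes outside the members were named by a rule: up to 4 called genes of a list with the largest change, plus Nfe2l2, Keap1, Txn2, Prdx4, Mlxipl, the deleted genes and the drug target, and the 3 patterns most like Srxn1. Map3k5, Glrx3, Glrx5, Selenoo, Sephs1, Sephs2, Sepsecs, Trnau1ap, Pstk, Secisbp2, Eefsec and the marker genes fall outside this rule and were picked with their values in view. The members and lists were chosen with earlier results of these data known. Pairs with Prdx1 or Prdx5 were not run. Promoters are from RefSeq (GRCm38.p6), and 7 of 7 measured genes matched. Array number, 3 per group, limits the precision. The statistics were tested on simulated data first. Alternatives were other scalings, dim or multi-transcript probe sets left out, other moderation, array weights, a replicate block, each mouse left out and the mean of a gene's probe sets.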

Additional observations from a re-analysis of the deposited data

How the results depend on the processing

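At the brightest probe sets, Srxn1, Txnrd1, Prdx3 and Txn1 stayed higher under each alternative that tested them, and Txnip and Txnrd2 stayed lower under each except averaging every probe set of each gene, where 0 member genes were called lower. Dropping multi-transcript probe sets left 10 member probe sets to test, 6 of them higher. The brightest probe set was kept for 4 genes (Txn1, Prdx3, Txnip and Txnrd2), of which 2 were higher. All probe sets of Txnrd1 and Prdx2 were dropped, and so was the brightest of Srxn1. The other 3 of Srxn1 were tested and stayed higher. In this setting 6 genes of the 6 other thioredoxin, selenium, arrestin and NRF2 lists were lower against 11. Over the member probe sets, 236 alternative values kept direction and call, 8 lost a call, 3 gained one and 4 turned direction. Those that turned were Txnip 1415997_at after scaling to one 75th percentile (-0.053) and without FRG-7dNTBC replicate 2, Txnrd2 1429972_s_at without FRG-7dNTBC replicate 2 and Prdx2 1430979_a_at without FRG+NTBC replicate 3. With 1 mouse left out at a time their log2FC ran from -0.32 to 0.49, from -0.062 to 0.42 and from -0.33 to 0.67, and none of the 3 was called. Without moderation 3141 probe sets were higher and 3336 lower, against 6284 and 6262, and 8 genes of those 6 lists were higher against 18. Scaling to one 75th percentile gave all probe sets a median log2FC of -0.21, against -0.08, and called 5366 higher and 9669 lower, 35.7% of calls higher against 50.1%, while the members stayed at 10 and 2. Leaving out 1 mouse at a time gave 9 to 12 member probe sets higher and 2 lower, 4 to 5 genes higher and 2 lower, 11 to 17 genes of those lists higher and 11 to 12 lower, and 4390 to 6815 probe sets higher and 3864 to 6400 lower over all. The pair differences then ran from 2.65 to 2.87 for Txnrd1 minus Txnrd2 and from 2.74 to 3.43 for Txn1 minus Txnip. The cause of these shifts was not tested. Same-numbered mice of both groups did not all deviate together (correlations of 0.106, 0.0339 and -0.156). With 3 mice per group this cannot decide whether same-numbered mice were handled together. The replicate block gave 10 member probe sets higher and 2 lower, with 6076 and 5272 over all. It called 1 neutrophil marker higher and 1 lower and 1 cholangiocyte marker higher. Dim readings, within or near the range of the T cell genes, limit the size of change at 2 probe sets each of Srxn1, Txnrd1 and Txnrd2 and at 1 of Txnip.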
